A study of Mus musculus with 12 samples.

Results

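Type I interferon-stimulated genes are the genes that cells switch on when they sense the antiviral cytokines interferon alpha and beta. A list of 41 such mouse genes was followed across 4 groups of CD8 T cells. A listed gene was measured where the array carried a probe set annotated to that gene symbol alone, and the probe set with the highest mean was used where there were several. By this rule 37 of the 41 genes were measured, and Oas1a, Ifi44, Dtx3l and Ifi27l2a had no such probe set. Of the 37, a group mean of 5 or more on the log2 scale was reached by 24, which were tested, while 13 lay below 5 in every group and count as not detected. The series as a whole gave 22180 measured genes, of which 9862 were tested.

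Type I interferons bind the receptor chains IFNAR1 and IFNAR2. The kinases JAK1 and TYK2 then act on STAT proteins, among them STAT2, which with IRF9 bind interferon-stimulated response elements in promoters, while gamma-activated sites (GAS) are a further kind of STAT binding element. The genes induced in this way include RNA and DNA sensors, enzymes and membrane proteins that block viruses, transcription factors of the IRF family, and components that tag proteins with ubiquitin, ISG15 or ADP-ribose. In CD8 T cells type I interferon can act beside the T cell receptor to shape differentiation and survival.

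The cells were naive CD8 T cells of mouse spleen, from wild-type (WT) animals and from Cd4cre+ STAT3fl/fl animals, written STAT3-/-, in which a Cre recombinase driven by Cd4, and so active in the T lineage, removes a floxed Stat3. Cells of both genotypes were combined in equal numbers and shared every culture. They were activated with anti-CD3 (1 µg/ml) and anti-CD28 (3 µg/ml) over 4 days. IL-12, for the cytotoxic Tc1 fate, or IL-6 with TGFb, for the IL-17-producing Tc17 fate, was present for 3 days, and IL-2 for 1 further day. The genotypes were then sorted apart by an allelic marker. Each of the 4 groups, Tc1 WT, Tc1 STAT3-/-, Tc17 WT and Tc17 STAT3-/-, holds 3 arrays, of which 2 are labelled as biological replicates and the last as a technical replicate 2. Sources used here state neither the age and number of the animals nor whether replicates came from separate animals or cultures, so p-values measure only a spread between samples that may be technical.

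All values are log2 expression levels. Array values are listed below in the order biological array 1, biological array 2, technical array. The technical array was averaged with biological array 2 because of its label, so each group mean rests on n = 2 samples. The labels do not say that these 2 arrays hold the same RNA. In all 4 groups they differed more (SD of the difference over tested genes 0.209 to 0.352) than the 2 biological arrays did (0.144 to 0.192). Changes are differences of group means ± SE from a limma fit over all 4 groups, and a gene is called where its Benjamini-Hochberg adjusted p over the 9862 tested genes was under 0.05. Stat3 lay between 9.77 and 10.72 on the WT arrays and between 6.99 and 7.93 on the STAT3-/- arrays. Of 10 measured T cell identity genes, 9 were detected, and Cd8a had group means of 11.19 to 11.49. The array least like the rest was the technical one of Tc17 WT, with a median correlation over tested genes of 0.933 to the other arrays, which themselves had 0.961 to 0.986.

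Promoters of 30 of the 41 listed genes were in a RefSeq table of windows from 250 bases before to 50 bases after each transcription start (build GRCm38.p6). The core of the interferon-stimulated response element was searched as GAAANNGAAA and the GAS as TTCNNNGAA, each on both strands. The response element core was found for 13 of the 30 genes (43.3%) and for 3.99% of all 27025 genes in the table, and GAS was found for 9 of the 30 (30.0%) and for 9.55% of all. The core was held by 8 of 19 tested members (42.1%) and by 4 of 8 members below 5 in every group (50%). In the Bst2 and Ifitm3 windows matches of both motifs overlap. A match is only a description of letters.

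The stretches of 150 bases below, each ending at the base before a transcription start, are shown because they belong to the genes the results turn on and to Isg15 and Ifit1, classical members that were not detected. They are written 5′ to 3′ along the gene's strand. Capitals mark the response element core in Mndal, Oas3, Isg15 and Ifit1 and the GAS in Irf1 and Isg20. The stretches are chr1:173880188-173880337 on the minus strand for Mndal, chr5:120777660-120777809 on the minus strand for Oas3, chr4:156200819-156200968 on the minus strand for Isg15, chr19:34640739-34640888 on the plus strand for Ifit1, chr11:53769864-53770013 on the plus strand for Irf1 and chr7:78913274-78913423 on the plus strand for Isg20.
Mndal: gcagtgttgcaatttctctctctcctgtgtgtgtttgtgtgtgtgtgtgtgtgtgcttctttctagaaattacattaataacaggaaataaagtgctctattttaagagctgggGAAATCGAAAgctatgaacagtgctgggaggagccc
Oas3: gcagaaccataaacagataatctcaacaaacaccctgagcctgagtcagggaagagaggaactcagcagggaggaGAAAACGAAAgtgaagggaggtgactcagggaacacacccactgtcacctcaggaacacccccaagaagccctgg
Isg15: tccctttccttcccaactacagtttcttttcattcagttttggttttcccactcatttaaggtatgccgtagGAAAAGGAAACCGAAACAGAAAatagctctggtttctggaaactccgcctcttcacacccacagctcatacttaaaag
Ifit1: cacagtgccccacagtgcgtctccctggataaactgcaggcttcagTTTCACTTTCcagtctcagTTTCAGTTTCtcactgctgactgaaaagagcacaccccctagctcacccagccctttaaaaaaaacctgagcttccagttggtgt
Irf1: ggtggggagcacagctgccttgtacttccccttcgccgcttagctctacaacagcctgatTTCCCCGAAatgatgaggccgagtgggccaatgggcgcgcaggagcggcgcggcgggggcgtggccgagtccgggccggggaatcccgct
Isg20: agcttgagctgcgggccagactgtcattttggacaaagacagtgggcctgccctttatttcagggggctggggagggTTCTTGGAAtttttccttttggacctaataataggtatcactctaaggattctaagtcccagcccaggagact
Mndal has 2 windows in the table, and in the one shown the core starts 36 bases before the transcription start. In Oas3 the core starts 75 bases before. Irf1 and Isg20 also have further windows, for other transcription starts, and those hold no GAS. Isg15, whose group means stayed below 5, carries 3 overlapping cores, and Ifit1 carries 2. Ifitm3 carries 2 cores, both after the transcription start. The windows of Samd9l, Xaf1, Trim25 and Sp100 held no core, and Parp14 was not in the table.

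The most familiar members were not detected in any group. Isg15 (a ubiquitin-like tag), Ifit1 and Ifit2 (RNA-binding antiviral proteins), Mx1 and Mx2 (antiviral GTPases), Rsad2 (viperin), Oas2, Oasl1, Oasl2, Cmpk2, Rtp4, Trim30a and Ifi204 all had group means under 5. Their group means ranged from 1.90 for Ifi204 in Tc17 WT to 4.91 for Ifit2 in Tc17 STAT3-/-. Array medians over all probe sets were 3.95 to 4.10, so several of these genes lay at or under the middle of the whole array. Just inside the threshold were Ifit3, with its highest group mean at 5.23 in Tc17 WT, and Xaf1, at 5.34 in Tc1 STAT3-/-.

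Ifit2, singled out after its values were seen, was the not-detected gene nearest to the threshold. Its values were 3.78, 4.06 and 3.29 in Tc17 WT and 5.06, 4.97 and 4.55 in Tc17 STAT3-/-. In Tc1 it read 4.52, 4.58 and 4.22 in WT and 4.50, 4.54 and 4.42 in STAT3-/-. The Tc17 WT arrays were the lowest of all and did not overlap any other group. These levels are a description only, since Ifit2 was below the threshold in every group.

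**Figure D1:**
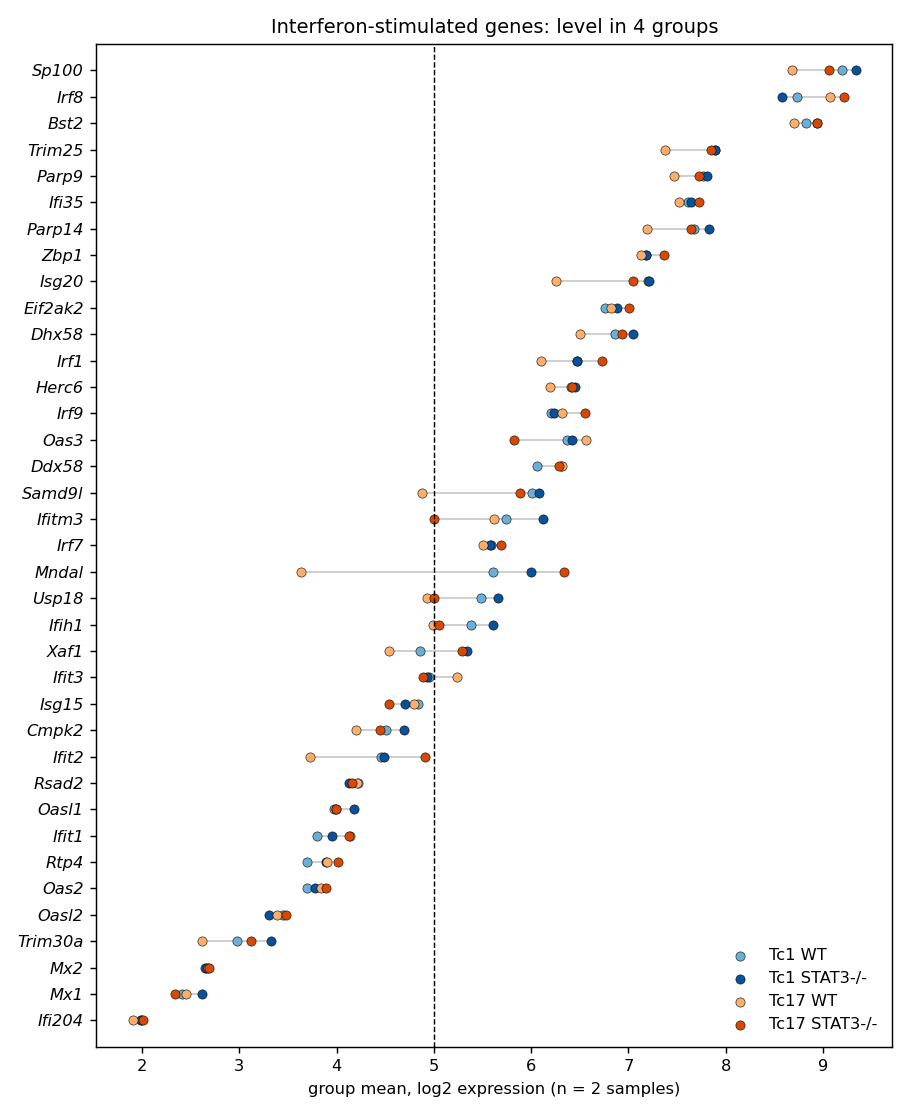
Group means (log2 expression, n = 2 samples a group) of the 37 measured interferon-stimulated genes, ordered by mean over the groups, with the detection threshold of 5 as a dashed line; levels of different probe sets are not comparable. The Tc17 WT points lie leftmost for most tested genes, farthest for Mndal at 3.64.

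Among the 24 tested members, Tc17 WT was the group with the lowest mean for 17 (70.8%), where it was lowest for 55.8% of all tested genes. The highest group was Tc1 STAT3-/- for 13 members (54.2%, against 27.2% of all tested genes) and Tc17 STAT3-/- for 8 (33.3%, against 26.9%). Of the 24, 6 reached 5 in some groups only. Ifit3 did so in Tc17 WT alone, Xaf1 in both STAT3-/- groups, and Usp18, Ifih1, Samd9l and Mndal in every group but Tc17 WT.

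Loss of STAT3 went with higher levels of 8 members and lower levels of 2 in Tc17 cells. Mndal, a nuclear protein of the interferon-inducible Ifi200 family, was 2.70 higher on the log2 scale, and Samd9l, an antiviral protein that restrains cell growth, 1.01 higher. For both, the Tc17 WT mean lay below the detection threshold of 5, so the size of the difference is not an exact fold change. Isg20, Xaf1, Irf1, Trim25, Parp14 and Sp100 rose by 0.38 to 0.79. Oas3 and Ifitm3 fell. Over all tested genes 18.2% were called higher and 6.83% lower, while 33.3% and 8.33% of the 24 members were; the comparison behind both figures is the same, and the members' share carries no test of its own.

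Among the transcription factors, Irf1, which activates many interferon-inducible and antigen-presentation genes, read 6.0, 6.44 and 5.96 in Tc17 WT and 6.71, 6.81 and 6.70 in Tc17 STAT3-/-. The Tc1 arrays read 6.56, 6.52 and 6.22 in WT and 6.55, 6.42 and 6.38 in STAT3-/-. Tc17 STAT3-/- arrays were the highest of all, with no overlap with any other group, and Irf1 was 0.63 ± 0.11 higher in STAT3-/- (limma adjusted p = 0.00435). Irf7, which amplifies interferon production, Irf8 and Irf9, a DNA-binding partner of STAT2, changed by 0.19 ± 0.12, 0.14 ± 0.09 and 0.24 ± 0.11 and were not called.

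Of the antiviral effectors, Isg20, an exonuclease that degrades viral RNA, read 6.12, 6.19 and 6.60 in Tc17 WT and 7.04, 7.0 and 7.10 in Tc17 STAT3-/-. On Tc1 arrays it read 7.13, 7.03 and 7.54 in WT and 7.12, 7.01 and 7.62 in STAT3-/-. Tc17 WT was below every other array, and the technical arrays were the highest of their group throughout. The change in Tc17 was 0.79 ± 0.12 (limma adjusted p = 0.00233).

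Samd9l gave 5.17, 4.36 and 4.81 in Tc17 WT and 5.98, 5.91 and 5.67 in Tc17 STAT3-/-. Its Tc1 values were 6.14, 5.89 and 5.86 in WT and 6.12, 6.07 and 6.02 in STAT3-/-. Here too the Tc17 WT arrays were the lowest and overlapped no other group, with the widest spread of the 4 groups. The Tc17 change was 1.01 ± 0.18 (limma adjusted p = 0.00448).

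Oas3, which makes the oligoadenylates that activate RNase L, moved the other way. It read 6.64, 6.64 and 6.33 in Tc17 WT and 6.04, 5.85 and 5.40 in Tc17 STAT3-/-. In Tc1 the biological arrays gave 6.09 and 6.27 in WT and 6.37 and 5.98 in STAT3-/-, while the technical arrays gave 7.0 and 6.98. Oas3 fell by 0.73 ± 0.19 in Tc17 STAT3-/- (limma adjusted p = 0.0219), and the technical arrays of both Tc1 genotypes stood above all other arrays. Ifit3, the remaining tested IFIT gene, was 0.35 ± 0.12 lower with an adjusted p of 0.0664. It passed the detection threshold only through Tc17 WT, so that it was tested depended on the group in which it was high.

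Among the sensors none was called. Dhx58 (LGP2) differed by 0.43 ± 0.17 (limma adjusted p = 0.0940), the DNA and RNA sensor Zbp1 by 0.23 ± 0.13, and the RNA-activated kinase Eif2ak2 (PKR) by 0.18 ± 0.12. The RNA helicases Ifih1 (MDA5) and Ddx58 (RIG-I) differed by 0.06 ± 0.14 and -0.04 ± 0.10. For Ddx58 the 3 arrays of each Tc17 genotype lay between 6.26 and 6.37.

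In the ubiquitin and ISG15 system, Trim25, a ubiquitin ligase that acts on RIG-I, read 7.46, 7.62 and 6.98 in Tc17 WT and 7.89, 7.89 and 7.74 in Tc17 STAT3-/-. Its Tc1 arrays lay at 8.02, 7.83 and 7.68 in WT and 7.85, 7.87 and 8.0 in STAT3-/-. The Tc17 genotypes did not overlap, but the WT technical array was well below its fellows. The change was 0.47 ± 0.11 (limma adjusted p = 0.0167), and without the Tc17 WT technical array it was 0.31 with an adjusted p of 0.0692. Usp18, which removes ISG15 and restrains IFNAR2, and the ISG15 ligase Herc6 changed by 0.08 ± 0.15 and 0.22 ± 0.14 and were not called.

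Parp14, an ADP-ribosyltransferase, read 7.28, 7.28 and 6.91 in Tc17 WT and 7.59, 7.68 and 7.72 in Tc17 STAT3-/-. On Tc1 arrays it read 7.64, 7.57 and 7.85 in WT and 7.93, 7.64 and 7.83 in STAT3-/-. The Tc17 WT arrays lay below every other array, and the change was 0.46 ± 0.11 (limma adjusted p = 0.0145). Parp9, its relative, differed by 0.26 ± 0.12 and was not called.

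Of the membrane proteins, Ifitm3, which blocks viral entry in endosomes, gave 5.58, 5.50 and 5.82 in Tc17 WT and 5.03, 4.94 and 5.01 in Tc17 STAT3-/-. In Tc1 it gave 5.6, 5.54 and 6.21 in WT and 5.84, 5.75 and 7.03 in STAT3-/-. Tc17 STAT3-/- was the lowest group with no overlap, and the Tc1 technical arrays, the STAT3-/- one most of all, stood above their biological arrays. Ifitm3 fell by 0.62 ± 0.17 in Tc17 (limma adjusted p = 0.0287). Ifitm3 has close paralogs, and how far its probes also read their transcripts is not known here. Bst2 (tetherin), among the 3 detected members of highest mean, read 8.88, 8.93 and 8.10 in Tc17 WT and 8.87, 8.94 and 9.07 in Tc17 STAT3-/-. Its biological arrays overlapped between the genotypes, and the difference of 0.24 ± 0.13 was not called.

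The nuclear protein Mndal gave the widest separation. Its values were 3.76, 3.5 and 3.54 in Tc17 WT and 6.24, 6.35 and 6.52 in Tc17 STAT3-/-. Tc1 WT arrays read 5.51, 5.74 and 5.67, and Tc1 STAT3-/- arrays 5.81, 6.0 and 6.39. All 3 Tc17 WT arrays lay below the medians of all probe sets, while the other 9 arrays lay above 5. Mndal was 2.70 ± 0.15 higher in Tc17 STAT3-/- (95% interval 2.36 to 3.04; limma adjusted p = 9.3e-06). Ifi200 genes are close copies of each other, so some of this signal could come from relatives. The 2 further tested members of the family are given below.

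Sp100, a component of PML nuclear bodies, read 8.78, 8.76 and 8.39 in Tc17 WT and 9.03, 9.14 and 9.04 in Tc17 STAT3-/-. Its Tc1 values were 9.26, 9.20 and 9.08 in WT and 9.38, 9.29 and 9.33 in STAT3-/-. The change was 0.38 ± 0.10 (limma adjusted p = 0.0252). With the mean of its 4 probe sets in place of the brightest, the change was 0.17 and not called (adjusted p = 0.249).

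Xaf1, a pro-apoptotic antagonist of the caspase inhibitor XIAP, gave 4.75, 4.20 and 4.47 in Tc17 WT and 5.27, 5.50 and 5.10 in Tc17 STAT3-/-. In Tc1 it gave 4.79, 4.90 and 4.96 in WT and 5.31, 5.07 and 5.64 in STAT3-/-. Every STAT3-/- array exceeded every WT array, in both cell types. The Tc17 change was 0.74 ± 0.13 (limma adjusted p = 0.00450). Xaf1 passed the detection threshold only through the STAT3-/- groups, so that it was tested depended on the groups in which it was high.

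**Figure D2:**
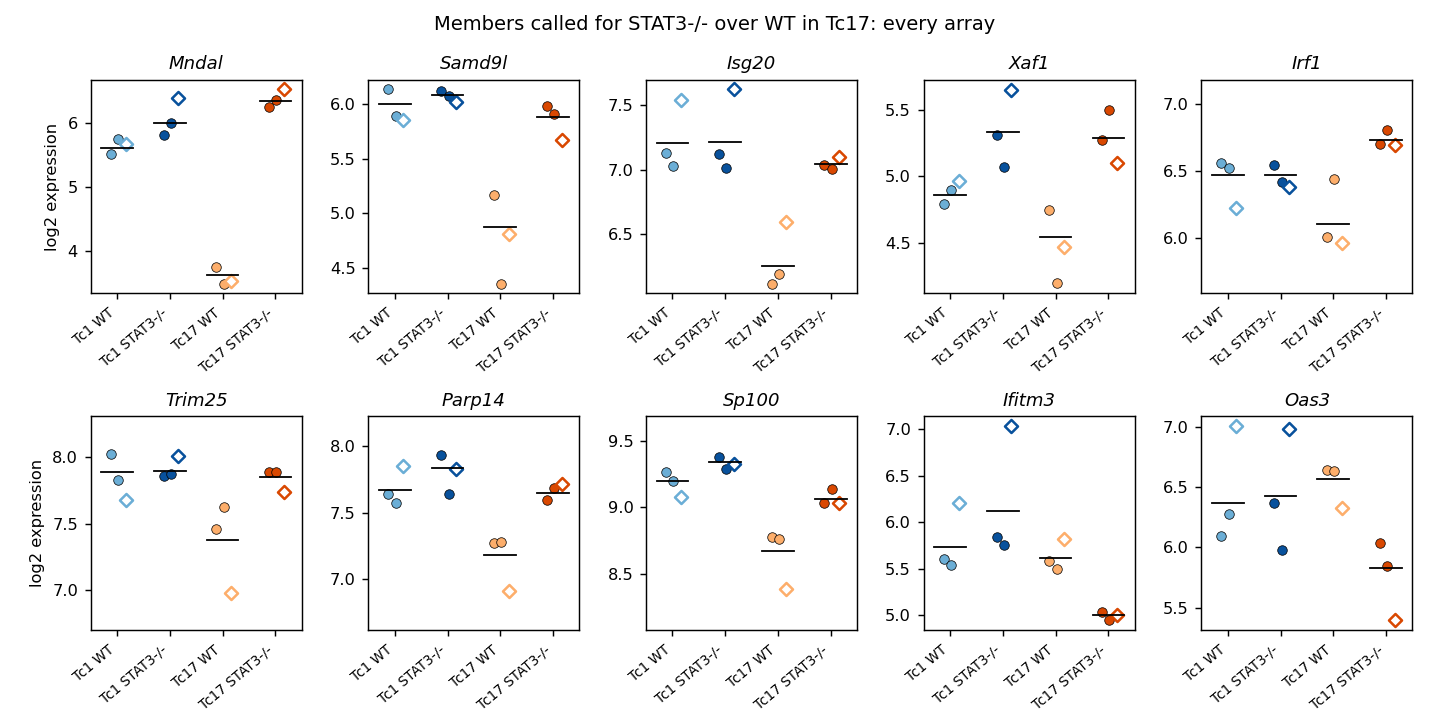
Log2 expression on every array for the 10 members called for STAT3-/- over WT in Tc17 cells; filled circles are biological arrays, open diamonds technical arrays and black lines group means, and each panel has its own scale. In Tc17 cells STAT3-/- is higher in 8 panels and lower for Ifitm3 and Oas3. The members were chosen by their call on these same arrays, so the separation of the Tc17 genotypes here is no further evidence.

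The changes of Mndal, Samd9l, Isg20, Xaf1 and Irf1 in Tc17 kept their call in every alternative that gave a value for them. Calls of Oas3, Parp14, Trim25, Ifitm3 and Sp100 were lost when a Tc17 sample was left out: Oas3 in 3 of 8 such fits (adjusted p 0.0584 to 0.156, without Tc17 STAT3-/- replicate 2 or either Tc17 WT replicate), Parp14, Trim25 and Sp100 in 3 each (0.0601 to 0.149, without either Tc17 STAT3-/- replicate or Tc17 WT replicate 2), and Ifitm3 in 4 (0.0563 to 0.135, whichever of the 4 Tc17 samples was left out).

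As a group, 20 of the 24 tested members were above 0 in Tc17, with a median change of 0.24 and quartiles of 0.13 and 0.46. All tested genes had a median of 0.11 and 67.7% of them were above 0. This shift of the whole array depended on scaling. After subtracting each array's median over tested genes, the median of all genes was -0.01 and that of the members 0.12, with 18 of 24 above 0. Over all genes that scaling gave 1085 called higher and 1110 lower, against 1799 and 674 as deposited, while among members it gave 8 higher and 3 lower.

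In Tc1 cells no member was called for STAT3-/- over WT (0 of 24, with 3 at an unadjusted limma p under 0.05). Over all genes 0.0203% were called higher and 0.0406% lower. The largest differences were those of Xaf1 (0.47 ± 0.13, adjusted p = 0.810), Mndal (0.39 ± 0.15) and Ifitm3 (0.38 ± 0.17), the last with its technical arrays farthest apart. The Mndal arrays of the Tc1 genotypes did not overlap. The median change of the members was 0.07, and that of all genes 0.01. For Irf1, Isg20 and Trim25 the Tc1 difference was 0.01, with SEs of 0.11 to 0.12.

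**Figure D3:**
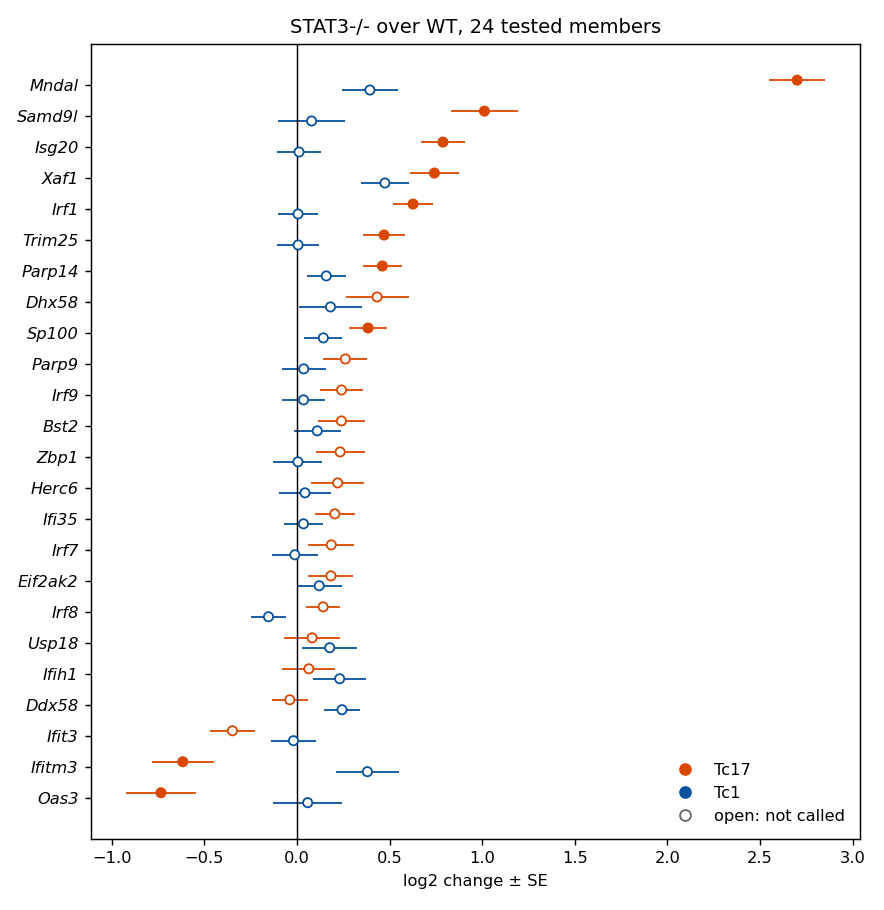
Log2 change (± SE) of STAT3-/- over WT for the 24 tested members in Tc17 (orange) and Tc1 (blue) cells; filled points were called at a limma adjusted p under 0.05. No Tc1 point is filled, and in Tc17 the changes run from -0.73 for Oas3 to 2.70 for Mndal.

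The difference between the genotype effects was tested directly as an interaction, the Tc17 effect minus the Tc1 effect. It was called higher for Mndal (2.31 ± 0.21, limma adjusted p = 0.000474), Isg20 (0.78 ± 0.17, 0.0307) and Irf1 (0.62 ± 0.16, 0.0486), and lower for Ifitm3 (-1.0 ± 0.24, 0.0422). That makes 3 and 1 of 24 members, where 4.48% of all tested genes were called higher and 2.37% lower. With each array's median over tested genes subtracted, all genes gave 271 higher and 371 lower in place of 442 and 234, and the members 1 and 1. For Samd9l (0.93 ± 0.25, adjusted p = 0.0626), Oas3 (-0.79 ± 0.27, 0.111), Trim25 (0.46 ± 0.16, 0.118) and Xaf1 (0.27 ± 0.19, 0.410) the effects were not shown to differ between the cell types, though Samd9l was called in 7 alternatives (adjusted p 0.00944 to 0.0495), among them the fit with the replicate number as a block (0.0126). Leaving out 1 sample at a time lost the call of Isg20 in 5 of 8 fits (adjusted p 0.0620 to 0.120, without either Tc17 STAT3-/- or either Tc1 WT replicate, or Tc1 STAT3-/- replicate 1), of Irf1 in 7 (0.0563 to 0.178, in all but the fit without Tc17 WT replicate 2), of Ifitm3 in 6 (0.0603 to 0.146, in all but those without Tc1 STAT3-/- replicate 1 or Tc17 WT replicate 1), and of Mndal in 0. Without the Tc17 WT technical array, Irf1 (0.50, 0.165) and Ifitm3 (-0.92, 0.0512) were not called.

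Tc17 WT cells held less of 8 members than Tc1 WT cells and more of Irf8. Mndal was lower by a log2 difference of -1.97 ± 0.15 (limma adjusted p = 4.6e-05), Samd9l by -1.13 ± 0.18 (0.00276) and Isg20 by -0.95 ± 0.12 (0.000948). Usp18, Sp100, Trim25, Parp14 and Irf1 were lower, with changes of -0.56 to -0.36. Over all tested genes 7.01% were called higher and 18.0% lower. With each array's median over tested genes subtracted, all genes gave 1139 higher and 1115 lower in place of 691 and 1777, and the members 3 and 6. This comparison uses the same Tc17 WT arrays as the Tc17 genotype comparison, so the values are given side by side and not as further evidence. Mndal was at -1.97 for Tc17 over Tc1 in WT and 2.70 for STAT3-/- over WT in Tc17, Samd9l at -1.13 and 1.01, Isg20 at -0.95 and 0.79, and Usp18 at -0.56 and 0.08.

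Usp18 gave 5.35, 5.69 and 5.55 in Tc1 WT and 5.13, 4.92 and 4.51 in Tc17 WT. In STAT3-/- it gave 5.63, 5.24 and 6.14 in Tc1 and 5.09, 4.90 and 4.94 in Tc17. Both Tc17 groups lay under both Tc1 groups with no overlap. The difference was -0.56 ± 0.15 in WT (limma adjusted p = 0.0258) and -0.66 ± 0.15 in STAT3-/- (0.0712, not called). The WT call was lost without Tc1 WT replicate 2 (-0.43, 0.146) or Tc17 WT replicate 2 (-0.35, 0.116), and narrowly with the median of tested genes subtracted, no dim filter or only the groups of the contrast (0.0507 to 0.0648). The STAT3-/- difference was called in 5 alternatives (adjusted p 0.0219 to 0.0497).

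Irf8, a transcription factor of myeloid cells and of T cell effector programs, was the member called higher. Ifit3 (0.29 ± 0.12), Ddx58 (0.26 ± 0.10), Oas3 (0.20 ± 0.19), Irf9 and Eif2ak2 were also above 0 in WT without a call. With each array's median over tested genes subtracted, Ifit3 and Ddx58 were called (limma adjusted p = 0.0339 and 0.0196). Ifit3 was tested only because Tc17 WT, the group in which it was high, passed the detection threshold. The values of Irf8 were 8.72, 8.77 and 8.70 in Tc1 WT and 9.06, 8.90 and 9.29 in Tc17 WT. The STAT3-/- arrays read 8.55, 8.44 and 8.76 in Tc1 and 9.12, 9.07 and 9.54 in Tc17. Every Tc17 array exceeded every Tc1 array. Irf8 was 0.34 ± 0.09 higher in Tc17 than in Tc1 in WT (limma adjusted p = 0.0268) and 0.64 ± 0.09 higher in STAT3-/- (0.00797). With the mean of its 2 probe sets neither was called (0.27, adjusted p = 0.131, and 0.49, adjusted p = 0.0938).

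In STAT3-/- cells Tc17 differed from Tc1 in 2 members, Irf8 upward and Ifitm3 downward (-1.11 ± 0.17, limma adjusted p = 0.00970). Over all genes 1.05% were called higher and 1.01% lower. Mndal (0.33 ± 0.15), Samd9l (-0.20 ± 0.18), Isg20 (-0.17 ± 0.12), Trim25 (-0.05 ± 0.11) and Irf1 (0.26 ± 0.11) were not called here. The members' median was -0.04, against -0.26 in WT, while all genes had medians of 0.00 and -0.10. The difference between these comparisons is, gene by gene, the interaction given above. The call of Ifitm3 was lost without either Tc17 STAT3-/- replicate (adjusted p 0.0721 and 0.0992), and that of Irf8 without Tc1 STAT3-/- replicate 1 (0.0733) or Tc17 STAT3-/- replicate 2 (0.122). In WT, the call of Irf1 was lost without either Tc1 WT replicate, either Tc17 STAT3-/- replicate or Tc17 WT replicate 1 (adjusted p 0.0598 to 0.242). Those of Irf8 (0.0712 to 0.132) and Parp14 (0.0508 to 0.0720) were lost without either Tc1 WT replicate or Tc17 WT replicate 2, that of Trim25 without Tc1 WT replicate 1 (0.0989) or Tc17 WT replicate 2 (0.0562), and that of Sp100 without Tc1 WT replicate 1 (0.0615). Without the Tc17 WT technical array, Irf1 (-0.24, adjusted p = 0.246) and Irf8 (0.25, 0.0834) were not called in WT. Calls of Mndal, Samd9l and Isg20 were kept in all these fits.

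**Figure D4:**
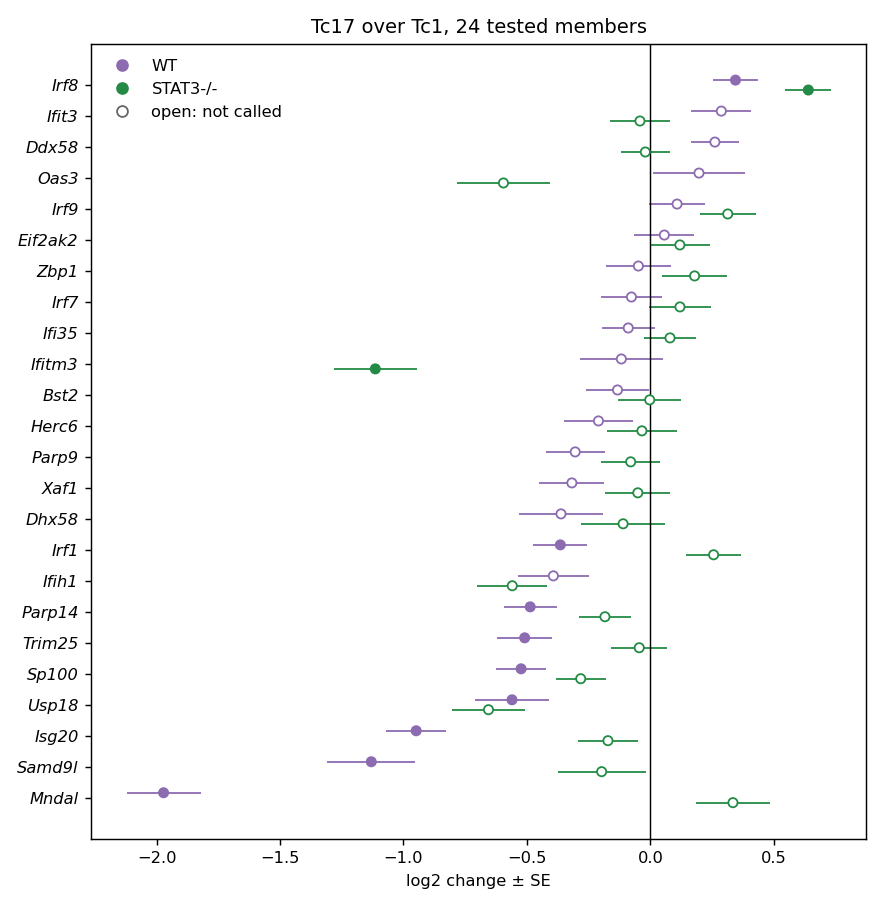
Log2 change (± SE) of Tc17 over Tc1 for the 24 tested members in WT (purple) and STAT3-/- (green) cells; filled points were called at a limma adjusted p under 0.05. In WT 8 filled points lie below 0 and Irf8 above, and in STAT3-/- only Ifitm3 and Irf8 are filled.

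Other genes of the pathway were read from lists of ligands, receptors, inhibitors, sensors and further targets. Of 16 measured type I interferon genes, 4 were tested, and Ifnb1 had group means of 2.43 to 2.69. Ifna4 fell by 0.56 ± 0.13 in Tc17 STAT3-/- (limma adjusted p = 0.0167), a call lost without the Tc17 WT technical array (-0.30, adjusted p = 0.180). It was also lost without Tc17 STAT3-/- replicate 1 (0.135) or Tc17 WT replicate 2 (0.0826). The interferon alpha genes are near-identical copies, so which of them gave this signal is uncertain. None of the other 3 was called for STAT3-/- over WT in Tc17. For Tc17 over Tc1 in WT, 2 of the 4 were called higher (50%, beside 7.01% of all tested genes). Ifna4 was 1 of them (0.65), a call lost without the Tc17 WT technical array (0.39, limma adjusted p = 0.0943). So few genes give no result for the list.

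The type I receptor chains were present in every group. Ifnar1 had group means of 8.74 to 9.17 and Ifnar2 of 8.15 to 8.45, with Tc17 changes of 0.33 ± 0.11 (limma adjusted p = 0.0521) and 0.30 ± 0.10 (0.0568). The kinases Jak1 (0.21 ± 0.08), Tyk2 (0.00 ± 0.11) and Jak2 (-0.22 ± 0.14) and the transcription factor Stat2 (-0.01 ± 0.10) were not called. The 2 chains of the interferon gamma receptor moved apart. Ifngr1 rose by 0.36 ± 0.08 (0.0150; lost without either Tc17 STAT3-/- replicate, 0.0725 and 0.125). Ifngr2, the chain that limits interferon gamma signalling in T cells, read 8.49, 8.54 and 8.41 in Tc17 WT and 7.34, 7.06 and 7.34 in Tc17 STAT3-/-, against 5.02 to 5.74 on the Tc1 arrays. Ifngr2 fell by 1.21 ± 0.10 in Tc17 STAT3-/- (adjusted p = 9.83e-05), and was 3.21 ± 0.10 higher in Tc17 than in Tc1 in WT.

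Of 9 tested inhibitors of interferon signalling, 3 were called higher and 2 lower in Tc17 STAT3-/- (33.3% and 22.2%, beside 18.2% and 6.83% of all tested genes). Socs3, which STAT3 itself induces and which restrains IL-6 receptor signalling, read 7.37, 7.49 and 7.62 in Tc17 WT and 6.03, 6.03 and 5.94 in Tc17 STAT3-/-, a fall of 1.46 ± 0.10 (limma adjusted p = 1.96e-05). Pias1 (0.48 ± 0.10), which sumoylates STAT proteins, Irf2 (0.47 ± 0.10), which competes with IRF1, and the phosphatase Ptpn6 (0.46 ± 0.12) rose, and the adaptor Sh2b3 fell (-0.47 ± 0.14). Socs1, the main inhibitor of the type I receptor kinases, had -0.12 ± 0.09 and was not called. Of 10 tested genes of nucleic acid sensing, 2 were called in each direction (20.0% each, beside 18.2% higher and 6.83% lower of all tested genes). Sting1 (0.39 ± 0.11) and Ikbke (0.39 ± 0.11) rose, and Ticam1 (-0.44 ± 0.09) and Samhd1 (-0.47 ± 0.09) fell. Calls of Sh2b3, Pias1, Irf2, Ptpn6, Sting1, Ikbke, Ticam1 and Samhd1 were each lost without at least 1 of the Tc17 STAT3-/- replicates, and some without other samples (adjusted p up to 0.236), and those of Socs3 and Ifngr2 in no such fit. Without the Tc17 WT technical array Ikbke was at 0.18 (adjusted p = 0.158) and Ptpn6 at 0.32 (0.0228). With each array's median over tested genes subtracted, Sting1 (0.27, limma adjusted p = 0.0593) and Ikbke (0.27, 0.0647) were not called. Both calls were also lost with quantile normalization and with cyclic loess.

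Beside Mndal, 2 of the 8 other measured Ifi200 genes were tested. Both were called higher in Tc17 STAT3-/-, where 18.2% of all tested genes were, and so few genes give no result for the family. Ifi209 read 3.36, 3.81 and 3.21 in Tc17 WT and 4.35, 4.18 and 4.62 in Tc17 STAT3-/-, a rise of 0.94 ± 0.17 (limma adjusted p = 0.00458). Both Tc17 groups were below 5, and it passed the detection threshold only through the Tc1 groups. The DNA sensor Aim2 rose by 0.44 ± 0.14 (0.0496), a call lost whichever Tc17 sample was left out (0.100 to 0.214) and without the Tc17 WT technical array (0.32, 0.160).

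Of 29 tested further interferon-inducible genes, 10 were called higher and 2 lower in Tc17 STAT3-/- (34.5% and 6.9%), with a median of 0.24, beside 18.2%, 6.83% and a median of 0.11 over all tested genes. The immunoproteasome subunit Psmb9 (0.78 ± 0.10), the STAT-interacting protein Nmi (0.73 ± 0.11) and the peptide transporter Tap1 (0.68 ± 0.12) rose. Psmb9 read 7.62, 7.70 and 7.25 in Tc17 WT and 8.33, 8.27 and 8.39 in Tc17 STAT3-/-. Ifitm2, the close paralog of Ifitm3, gave 5.96, 5.67 and 5.39 in Tc17 WT and 4.57, 4.59 and 3.48 in Tc17 STAT3-/-, and fell by 1.44 ± 0.18 (limma adjusted p = 0.00093). All its Tc17 STAT3-/- arrays lay below the detection threshold of 5, the technical one well below its fellows. The size of the fall is therefore not an exact fold change. In Tc1 STAT3-/- none of the genes on these 6 lists was called, where 0.0203% of all tested genes were called higher and 0.0406% lower, so nothing about the lists can be read from it.

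Markers of other cells that respond to or make type I interferon were mostly not detected, but each list named here held some genes that were. Of 9 measured plasmacytoid dendritic cell genes 3 were tested, and Siglech had group means of 3.11 to 3.26. The array mean of this list was 4.03 to 4.10 in Tc17 WT and 4.09 to 4.20 in Tc17 STAT3-/-. Of 10 measured myeloid genes 2 were tested, with Lyz2 at 3.29 to 3.52 and list means of 4.27 to 4.50 and 4.26 to 4.31. Of 7 measured B cell genes 2 were tested: Ighm and Cd79b rose in Tc17 STAT3-/- (1.77 ± 0.10 and 0.78 ± 0.11), while Ms4a1 and Cd79a lay at 2.37 to 3.96, and the list mean was 4.85 to 4.94 in Tc17 WT and 5.14 to 5.19 in Tc17 STAT3-/-. Cd68 fell by 1.12 ± 0.11, and Eomes rose by 0.67 ± 0.16. Of the 3 tested plasmacytoid dendritic cell genes, Pacsin1 rose by 0.53 ± 0.10, while Tcf4 (-0.31 ± 0.13) and Cd300c (-0.32 ± 0.14) were not called. The part of these genes in the members' changes was not tested. In such bulk samples, fewer cells that express a gene and less RNA per cell cannot be told apart.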

How the data were processed

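Total RNA of 12 samples was hybridised to Affymetrix mouse arrays, 3 arrays a group. The authors deposited log2 expression values per probe set, and RMA and Partek are named, without versions, in the submitters' processing notes. RMA corrects background, equalises array distributions and summarises probes, so a change of the whole transcriptome can be reduced by it. Of 41345 probe sets, 23521 were annotated to exactly 1 gene symbol.

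Each technical array was first averaged with the second biological array of its group, which leaves 8 samples. A model of group means in limma 3.58.1 (R 4.3.3; lmFit and eBayes, 4 residual and 4.87 prior degrees of freedom, data.table, version 1.17.8) gave 5 contrasts, and p-values were adjusted by Benjamini-Hochberg over 9862 genes with a group mean of at least 5. Scripts were tested on simulated data. Figures and promoter searches used Python 3.11.15 with matplotlib 3.10.9. Arrays give no counts, so their number limits the precision.

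Array values are given for members called in a genotype contrast or the interaction, for up to 8 called for Tc17 over Tc1 in WT and up to 6 in STAT3-/-, and for the 3 detected members of highest mean. From each pathway list up to 4 called genes and the receptor and kinase genes and Stat2 are named; Ifit2, Ptpn6 and the marker genes were named after their values were seen. Some items are not reported here. The members and lists were chosen with earlier results of these data known. Alternatives changed the normalization, the filter, the handling of probe sets and technical arrays, the variance model, the replicate block and the samples fitted. The files name no genome build, and gene coordinates are RefSeq's.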

Additional observations from a re-analysis of the deposited data

Results flagged for a closer look

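The effect of STAT3 loss was called as different between Tc17 and Tc1 cells for 4 of 24 tested members. The test was the interaction term of the limma fit. It was also called for 7 genes of the related lists, which held 4, 8, 9, 10, 2 and 29 tested genes. Over all tested genes 4.48% were called higher and 2.37% lower. The values are the log2 change of STAT3-/- over WT in Tc17 minus that in Tc1.

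Among members the difference was 2.307 for Mndal (adjusted p = 0.000474), 0.7769 for Isg20 (0.0307), 0.621 for Irf1 (0.0486) and -0.9967 for Ifitm3 (0.0422). For Mndal the STAT3-/- arrays exceeded the WT arrays in both cell types, while Ifitm3 had opposite signs, 0.38 in Tc1 and -0.62 in Tc17. With quantile normalization the calls of Isg20 (limma adjusted p = 0.085), Irf1 (0.0716) and Ifitm3 (0.0523) were lost. They were lost with no dim filter too (0.0696, 0.119 and 0.0808), and that of Mndal was kept in both.

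Among related genes the difference was -1.723 for Ifitm2 (adjusted p = 0.0067), -1.583 for Ifngr2 (0.000474), -1.172 for Socs3 (0.00165), 0.8781 for Psmb9 (0.00739), -0.8338 for Ifna4 (0.0357), 0.7677 for Tap1 (0.0309) and -0.5153 for Samhd1 (0.0422). Calls of Ifna4, Tap1 and Samhd1 were each lost in 6 of 8 fits that left out a sample (adjusted p 0.0532 to 0.181), and without the Tc17 WT technical array Ifna4 was at -0.57 (0.142).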

How the results depend on the processing

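No member's call changed sign under any alternative, and no member was called in Tc1 under any. In the interaction, Isg20 (limma adjusted p = 0.0696) and Irf1 (0.119) lost their calls with no dim filter. Counts of called members moved as follows. For STAT3-/- over WT in Tc17 the 8 higher became 5 to 11 when a sample was left out and 6 with cyclic loess, where Trim25 (adjusted p = 0.0559) and Sp100 (0.0811) lost their calls, and the 2 lower became 0 to 2, 1 with no dim filter and 1 with technical arrays as samples of their own. In the interaction the 3 higher became 1 with the median of tested genes subtracted, with quantile normalization and with cyclic loess, and 1 to 4 when a sample was left out. The 1 lower became 0 with quantile normalization, with no dim filter, with technical arrays as samples of their own and without the Tc17 WT technical array, 3 with all technical arrays left out, and 0 to 1 when a sample was left out.

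For Tc17 over Tc1 in WT the 1 higher (Irf8) became 3 with the median of tested genes subtracted. The count was 2 with quantile normalization, cyclic loess or all technical arrays left out. With all technical arrays left out the 2 were Ifit3 (limma adjusted p = 0.00792) and Oas3 (0.0308), and Irf8 was not called (0.23, 0.0903). The count was 0 with the median of all probe sets subtracted, no dim filter, the mean of probe sets, or only the groups of the contrast. It was also 0 with technical arrays averaged with replicate 1 or as samples of their own, and without the Tc17 WT technical array. Leaving out a sample gave 0 to 1 higher and 4 to 9 lower, in place of 8. In STAT3-/- the 1 higher became 0 with the mean of probe sets and 0 to 1 when a sample was left out. The 1 lower became 3 with the median of tested genes subtracted, 2 without the Tc17 WT technical array, 2 with only the groups of the contrast, and 0 to 2 when a sample was left out. A left-out replicate leaves a group with 1 sample, assumed to vary like the others. The causes were not tested.

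With the replicate number as a block (replicate block) the Tc17 genotype comparison gave 9 higher and 2 lower, the interaction 4 and 1, Tc17 over Tc1 1 and 10 in WT and 1 and 2 in STAT3-/-, and Tc1 0 and 0. This block was common to Tc1 and Tc17. Neither it nor the main fit paired the genotypes within a fate, although the genotypes shared every culture. Deviations of same-numbered samples correlated at 0.0980 to 0.455 between groups, and at 0.000364 to 0.172 over biological arrays alone. Between the genotypes they correlated at 0.455 in Tc1 and 0.0988 in Tc17, and over biological arrays alone at 0.172 and 0.0291. The numbers do not establish a pairing. The fit on only the groups of a contrast gives no interaction, and a filter at 6 leaves some members untested.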
